A study of Mus musculus with 6 samples.

Results

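The genes described here make cholesterol and fatty acids, or control those pathways. They are 35 genes of the textbook pathway, chosen by name, of 18908 genes in the table. They comprise 18 genes of cholesterol synthesis, 8 of fatty acid synthesis and desaturation, 6 of sterol sensing and control, and 3 of sterol efflux.

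Cells sense cholesterol in the membrane of the endoplasmic reticulum. When sterol is scarce, the escort protein SCAP carries the transcription factors SREBP1 and SREBP2 to the Golgi, where proteases release the active part. When sterol is abundant, INSIG proteins hold SCAP back. SREBP2 is best known for driving cholesterol synthesis genes and SREBP1 for driving fatty acid synthesis genes. Surplus sterol is converted to oxysterols, which activate the LXR receptors, and LXR in turn raises transporters that export cholesterol. In macrophages this balance is known for setting how much cholesterol a cell stores.

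Messenger RNA was sequenced from 3 libraries labelled VprBP shRNA, with the genotype given as a VprBP1 knockdown, and from 3 libraries labelled control shRNA, with the genotype given as WT. Small hairpin RNAs (shRNAs) are used to knock down a chosen transcript. VprBP, now called Dcaf1, recruits substrates to a ubiquitin ligase, and the series concerns its part in osteoclast formation. The labels give every library as mouse bone marrow-derived macrophages (BMDM), and give neither age, sex, hairpin sequence nor delivery. Whether libraries of the same label are separate animals or cultures is not stated, so p-values reflect the spread among libraries, possibly technical alone.

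Levels are CPM, read counts scaled to a common library size. Dcaf1 stood at 36.0, 34.6 and 36.8 CPM in VprBP-labelled libraries, against 42.2, 43.5 and 40.7 CPM in control-labelled libraries. That is 1.18-fold lower (log2 difference -0.24, SE 0.07, edgeR adjusted p = 0.00625), and with scaling by library size alone the difference was -0.12 and did not pass the threshold. The macrophage label did not match the markers. Of 21 macrophage markers, 14 had no row, among them Csf1r, Adgre1, Itgam and Spi1, and the 7 with a row summed to between 20.6 and 21.6 CPM in VprBP-labelled libraries and between 37.4 and 40.6 CPM in control-labelled libraries. Cd68 alone set that direction (1.01 CPM in VprBP-labelled and 31.6 CPM in control-labelled libraries). Without it the sums were 20.2 ± 0.709 CPM in VprBP-labelled and 7.90 ± 0.915 CPM in control-labelled libraries, with Mertk, Lyz2 and Laptm5 called higher. The 9 pigment cell markers, such as Tyrp1, Dct and Pmel, summed to 19475 ± 234 CPM in VprBP-labelled and 21241 ± 205 CPM in control-labelled libraries (SD, n = 3 each). All 9 were called, 4 higher and 5 lower, where 75.0% of all tested genes were called. Mitf and Sox10 were 3.44-fold and 3.51-fold higher, and Pmel and Gpr143 were 2.78-fold and 4.29-fold lower. Markers of Schwann cells and oligodendrocytes (4 of 5 with a row) summed to 951 ± 32.7 CPM in VprBP-labelled libraries and 33.3 ± 1.28 CPM in control-labelled libraries. Fibroblast and stromal markers (4 of 5 with a row) summed to 348 ± 25.5 CPM in VprBP-labelled and 27.8 ± 1.02 CPM in control-labelled libraries. Most of that sum was Col1a1 (302 CPM in VprBP-labelled and 14.9 CPM in control-labelled libraries). Pdgfra was also higher, 4.38-fold (44.9 CPM in VprBP-labelled and 10.2 CPM in control-labelled libraries). Dcn was 2.14-fold lower, and Lum was too low to test. Of 5 adipocyte markers only Plin1 had a row, and none of 5 hepatocyte markers had one. The groups are therefore named by their labels throughout. The part of these cell type differences in the results that follow was not tested, and in bulk RNA fewer cells of a type cannot be told apart from less RNA per cell.

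The libraries held 17825340 to 18407356 counts (VprBP-labelled) and 16839445 to 21838875 counts (control-labelled). A floor of 3 counts lay between 0.137 and 0.178 CPM of these totals, without the further scaling between libraries that the levels carry. Genes encoded by the mitochondrial genome took 4.89% to 5.56% of counts in VprBP-labelled libraries and 8.65% to 9.48% in control-labelled libraries. The labels differed across most of the transcriptome: of 14641 genes tested, 10974 (75.0%) passed a Benjamini-Hochberg adjusted p of 0.05, 5552 (37.9%) of them higher and 5422 (37.0%) lower in VprBP-labelled libraries. The 3 values of each label did not overlap for 11299 genes (77.2%).

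All 35 genes had a row and 34 had enough counts to test, the exception being Abcg1. Of the 34, 14 rose, 14 fell and 6 were not called, and the 3 values of each label did not overlap for 28. Both counts lie near the shares for all genes. Cholesterol synthesis genes fell more often than they rose, with 11 of 18 lower, 3 higher and 4 not called (median log2 difference -0.32, against -0.01 for all genes tested). The share of all tested genes that fell was 37.0%. Of the 8 fatty acid genes, 7 rose and none fell (median 0.59), where 37.9% of all tested genes rose. Of the 6 control genes 3 rose and 2 fell, and of the 2 efflux genes tested 1 rose and 1 fell. No test was made of any list as a whole.

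**Figure D1:**
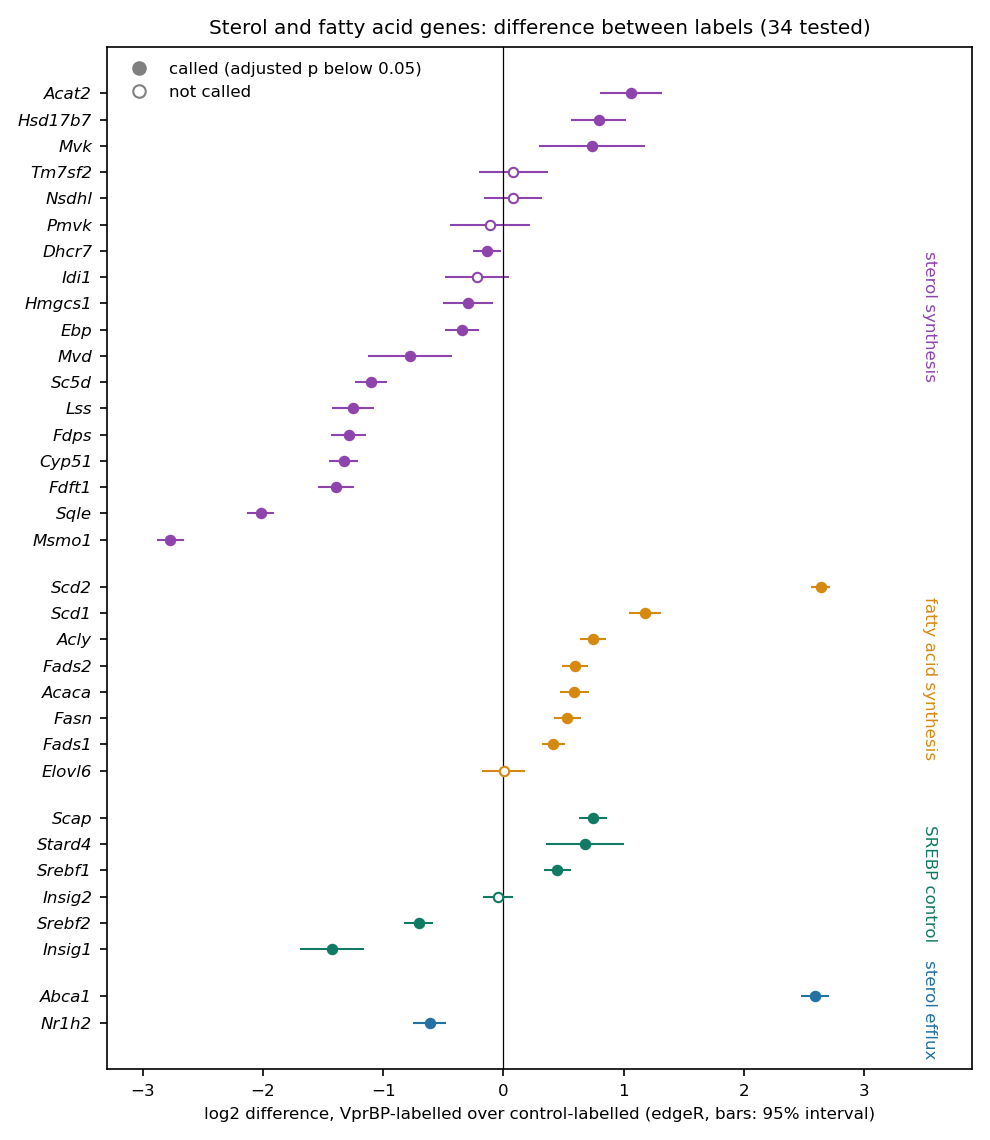
Log2 difference between VprBP-labelled and control-labelled libraries for the 34 genes tested, grouped by role, on the horizontal axis, with 95% intervals from the edgeR fit. Filled points passed an adjusted p of 0.05. Cholesterol synthesis genes run from -2.77 (Msmo1) to 1.07 (Acat2), while the intervals of all fatty acid genes except Elovl6 lie above 0.

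The promoter letters of 6 genes are shown first, since SREBP2 acts together with NF-Y, a factor that binds the CCAAT box, at many sterol genes. RefSeq promoter windows (GRCm38.p6, 250 bases before to 50 after each start) were matched for 27 of the 35 genes, with 35 windows in all because some genes have several starts. There was no match for Fdps, Fdft1, Sqle, Stard4, Scd1, Scd2, Fads1 and Abcg1. Each sequence below is the 250 bases upstream of the start, 5′ to 3′ on the gene's strand. Capitals mark TCACNCCAC, a consensus form of the sterol regulatory element, and CCAAT, the NF-Y box, each on either strand, so that CCAAT on the other strand reads ATTGG. Hmgcs1 was shown as the only gene with the sterol element letters. Msmo1, Insig1 and Cyp51 fell and Hsd17b7 and Mvk rose, and these 5 were chosen after their values were seen. They are the called genes that differed most each way among those with an upstream CCAAT box.
Hmgcs1: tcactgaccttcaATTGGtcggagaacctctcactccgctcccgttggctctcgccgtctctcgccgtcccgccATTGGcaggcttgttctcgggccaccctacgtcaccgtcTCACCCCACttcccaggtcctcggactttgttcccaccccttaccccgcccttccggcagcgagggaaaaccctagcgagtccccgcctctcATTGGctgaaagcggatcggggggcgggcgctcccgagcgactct
Msmo1: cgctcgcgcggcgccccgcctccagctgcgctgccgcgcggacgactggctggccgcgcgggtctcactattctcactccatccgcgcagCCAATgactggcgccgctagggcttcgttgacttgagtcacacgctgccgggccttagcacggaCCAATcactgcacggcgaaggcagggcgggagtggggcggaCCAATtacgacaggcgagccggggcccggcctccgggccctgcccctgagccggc
Insig1: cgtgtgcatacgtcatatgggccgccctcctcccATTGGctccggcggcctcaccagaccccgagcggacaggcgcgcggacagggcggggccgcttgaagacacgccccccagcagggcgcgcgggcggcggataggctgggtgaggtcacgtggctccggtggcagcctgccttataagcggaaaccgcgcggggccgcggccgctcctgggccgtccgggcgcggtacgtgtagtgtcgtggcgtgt
Cyp51: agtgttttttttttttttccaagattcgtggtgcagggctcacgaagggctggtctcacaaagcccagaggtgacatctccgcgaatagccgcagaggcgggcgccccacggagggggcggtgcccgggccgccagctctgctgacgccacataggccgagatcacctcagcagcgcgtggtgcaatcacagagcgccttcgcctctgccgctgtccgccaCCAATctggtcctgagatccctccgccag
Hsd17b7: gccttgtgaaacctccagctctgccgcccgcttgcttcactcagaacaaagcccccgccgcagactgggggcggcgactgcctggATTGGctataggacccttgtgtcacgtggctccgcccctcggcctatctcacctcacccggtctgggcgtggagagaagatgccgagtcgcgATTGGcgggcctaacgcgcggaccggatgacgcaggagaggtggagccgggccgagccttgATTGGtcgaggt
Mvk: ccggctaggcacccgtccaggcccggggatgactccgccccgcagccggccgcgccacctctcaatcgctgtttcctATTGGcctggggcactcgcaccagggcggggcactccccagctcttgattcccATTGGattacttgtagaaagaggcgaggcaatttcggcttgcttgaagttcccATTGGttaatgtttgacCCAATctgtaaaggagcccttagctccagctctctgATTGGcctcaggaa

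These upstream stretches lie at chr13:119690101-119690350 (plus strand) for Hmgcs1, chr8:64733579-64733828 (minus strand) for Msmo1, chr5:28071162-28071411 (plus strand) for Insig1, chr5:4104698-4104947 (minus strand) for Cyp51, chr1:169969206-169969455 (minus strand) for Hsd17b7 and chr5:114444019-114444268 (plus strand) for Mvk. In Msmo1, Insig1, Cyp51 and Hsd17b7 the window runs partly into the gene as GENCODE draws it, because the RefSeq start differs. The Hmgcs1 window held TCACCCCAC with its first base 137 bases before the start, between CCAAT boxes at 176 and 45 bases. Msmo1 carried 3 CCAAT boxes, at 160, 96 and 55 bases before the start. Hsd17b7 also carried 3, at 165, 73 and 12 bases, and Mvk carried 5. As GENCODE draws them, these minus-strand genes begin at 64733792 (Msmo1), 4104746 (Cyp51) and 169969241 (Hsd17b7). All 3 Msmo1 boxes, the Cyp51 box and the Hsd17b7 box at 12 bases therefore lie inside the gene as drawn there. Because the box was a condition for showing these 5 genes, its presence in both directions carries no information.

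Counted by gene, with a match in any of its windows, the sterol element letters occurred in 1 of 27 genes, against 1.40% of the 10446 tested genes with a window. Counted by window they occurred in 1 of 35, against 1.24% of all 32851 mouse windows. CCAAT occurred in 20 of 27 genes, against 43.3% of tested genes, and in 21 of 35 windows, against 37.4% of all windows. It was found for 14 of 15 cholesterol synthesis genes, 4 of 5 control genes, 2 of 5 fatty acid genes and neither of 2 efflux genes. The GC box letters GGGCGG, bound by Sp1, were present in 22 of 27 genes (68.4% of tested genes), and the E-box CACGTG in 6 of 27 genes (11.7% of tested genes). Among the 20 genes with a CCAAT box 5 rose, 10 fell and 5 were not called, and among the 7 without it 5 rose, 1 fell and 1 was not called. This split largely repeats the role lists, since the box was found mostly in cholesterol synthesis genes. Over all tested genes with a window, 38.07% of those with the box and 39.09% of those without it fell. The shares that rose were 40.99% with the box and 39.14% without it. These are matches of letters in short windows, not binding sites.

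Among the control genes, Insig1, which retains SCAP in the endoplasmic reticulum and is itself an SREBP target, moved most. It measured 14.4, 13.8 and 10.5 CPM in VprBP-labelled libraries, against 36.8, 38.0 and 29.0 CPM in control-labelled libraries. The groups did not overlap, and Insig1 was 2.68-fold lower (95% interval 2.23 to 3.22, edgeR adjusted p = 9.93e-09). Its relative Insig2, which has the same retention role, measured 82.6, 83.6 and 82.9 CPM in VprBP-labelled libraries and 87.7, 90.6 and 79.0 CPM in control-labelled libraries. The Insig2 groups overlapped, and the interval of the log2 difference (-0.17 to 0.08) included 0.

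Srebf2, which encodes SREBP2, stood at 95.1, 87.1 and 82.0 CPM in VprBP-labelled libraries and at 145, 139 and 146 CPM in control-labelled libraries. All VprBP-labelled values were lower, a 1.63-fold difference (edgeR adjusted p = 3.29e-09). Srebf1, which encodes SREBP1, moved the other way, with 145, 133 and 131 CPM in VprBP-labelled libraries, against 97.2, 101 and 102 CPM in control-labelled libraries (1.36-fold higher). Its exons overlap those of Rai1 on the opposite strand, which fell by 0.89 on the log2 scale, and without a stated strand setting their shared reads cannot be told apart. Scap, the escort of both factors, had 159, 151 and 144 CPM in VprBP-labelled libraries and 89.6, 87.0 and 94.1 CPM in control-labelled libraries. It was 1.68-fold higher with no overlap. Stard4, a carrier of sterol between membranes, was less abundant and rose 1.60-fold, with 13.2, 13.7 and 13.5 CPM in VprBP-labelled libraries, against 8.90, 9.91 and 6.39 CPM in control-labelled libraries (edgeR adjusted p = 0.000617).

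**Figure D2:**
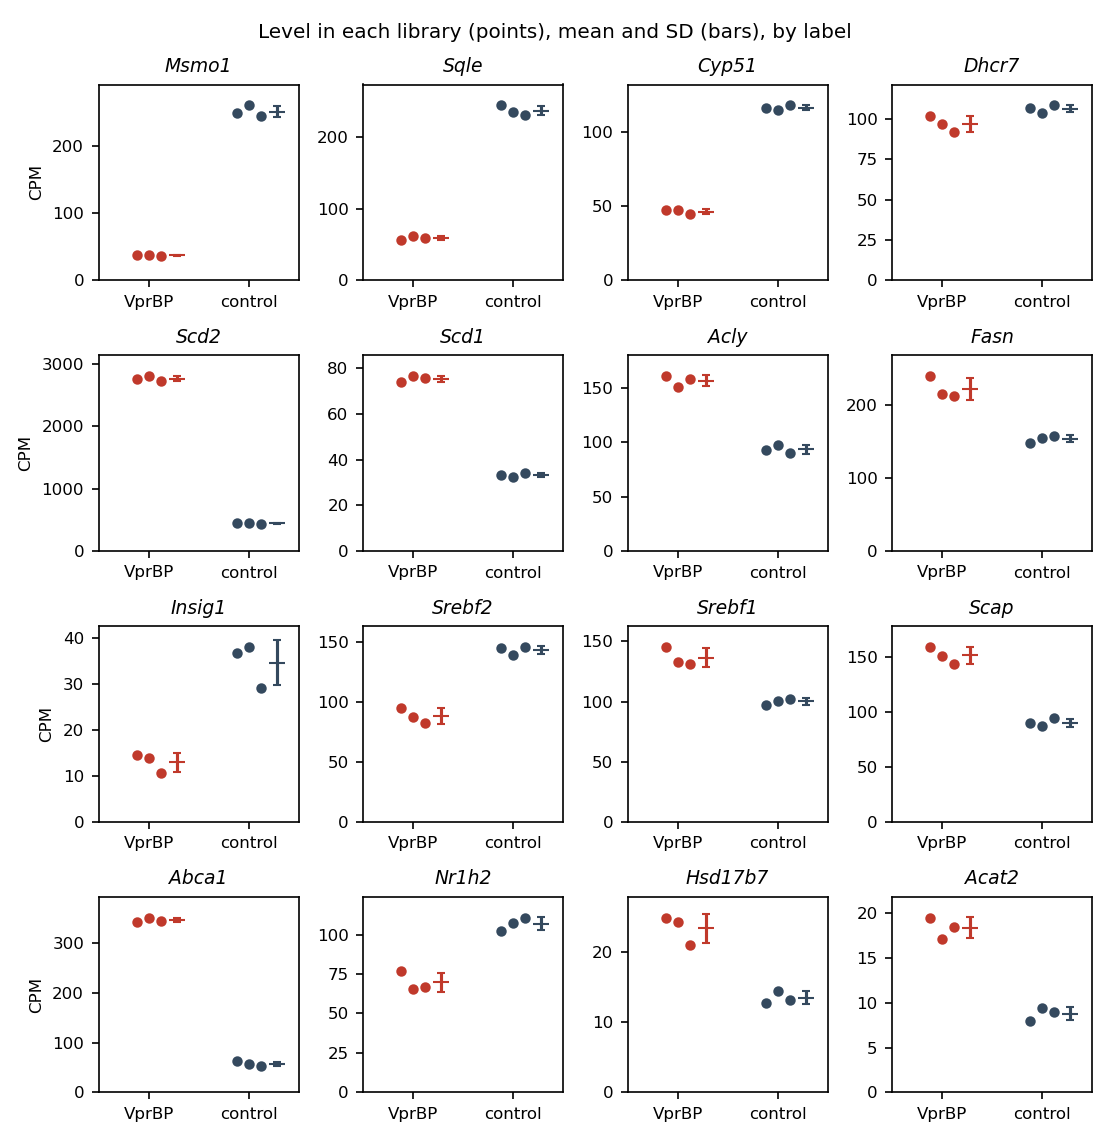
Level of 16 genes in each library, in CPM on axes that start at 0, with points for libraries and bars for the mean and SD (n = 3), VprBP-labelled at left and control-labelled at right of each panel. The groups are apart in all 16 panels, narrowly for Dhcr7, where the VprBP-labelled values reach 102 and the lowest control-labelled value is 104. The 6 tested genes whose groups overlap are not drawn, so that count carries no information. Over all tested genes the groups did not overlap for 77.2%.

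Along cholesterol synthesis the summed level differed by step. In VprBP-labelled libraries it was 1.30-fold lower up to farnesyl diphosphate, 3.46-fold lower from there to lanosterol and 1.87-fold lower from lanosterol to cholesterol. The summed level of the 18 genes, in CPM per kilobase of exon so that genes of different length can be added, was 129 ± 1.16 in VprBP-labelled libraries and 249 ± 3.71 in control-labelled libraries. The 7 genes that lead to farnesyl diphosphate summed to 34.1 ± 0.884 CPM per kb in VprBP-labelled and 44.2 ± 1.90 CPM per kb in control-labelled libraries. The 3 genes from farnesyl diphosphate to lanosterol (Fdft1, Sqle and Lss) summed to 17.5 ± 0.610 CPM per kb in VprBP-labelled and 60.6 ± 1.64 CPM per kb in control-labelled libraries. The 8 genes from lanosterol to cholesterol summed to 77.1 ± 1.40 CPM per kb in VprBP-labelled and 144 ± 2.80 CPM per kb in control-labelled libraries. Single genes weighed heavily in these sums. Fdps had 7.39 CPM per kb in VprBP-labelled and 18.0 CPM per kb in control-labelled libraries, and the fall of the first sum rests on it. Of those 7 genes 3 fell, 2 rose and 2 were not called. In the same order of labels, Sqle had 10.5 and 42.7 CPM per kb, and Msmo1 had 6.01 and 41.0 CPM per kb.

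In the early steps results went both ways. Acat2, the thiolase that makes acetoacetyl-CoA, had 19.5, 17.2 and 18.5 CPM in VprBP-labelled libraries, against 7.99, 9.48 and 8.95 CPM in control-labelled libraries. It was 2.09-fold higher with no overlap, although its counts had fractions in all 6 libraries, as arise where reads matching related genes are divided. Its near relative Acat3 averaged 0.938 CPM in VprBP-labelled and 1.28 CPM in control-labelled libraries. Fractions in all 6 libraries were also found for Fdps, Fdft1, Tm7sf2, Scap, Acaca, Fasn, Elovl6, Fads1, Scd1 and Scd2. Over all genes, 62.1% to 64.5% of the values of a library were whole. Hmgcs1, the synthase that makes HMG-CoA, averaged 21.9 ± 2.72 CPM in VprBP-labelled libraries and 26.8 ± 1.03 CPM in control-labelled libraries. It fell by 0.29 on the log2 scale (edgeR adjusted p = 0.0127), a call that was lost under 2 of 15 alternative settings, which were scaling by library size alone (-0.18) and leaving out VprBP-labelled replicate 3 (-0.20). Mvk, mevalonate kinase, had 7.39, 6.80 and 8.86 CPM in VprBP-labelled libraries and was 1.67-fold above its 3.25, 5.20 and 5.49 CPM in control-labelled libraries (edgeR adjusted p = 0.00427).

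The next kinase, Pmvk, was not called, with 9.33, 8.05 and 7.04 CPM in VprBP-labelled libraries and 8.23, 8.61 and 9.55 CPM in control-labelled libraries. The interval of its log2 difference was -0.44 to 0.22. Idi1, the isopentenyl diphosphate isomerase, was not called either, with 11.9, 15.2 and 15.5 CPM in VprBP-labelled libraries, against 14.9, 17.5 and 17.6 CPM in control-labelled libraries and an interval of -0.49 to 0.04. Other genes of these steps fell. Mvd, the mevalonate diphosphate decarboxylase, was 1.71-fold lower, at 5.72 ± 0.558 CPM in VprBP-labelled libraries and 9.81 ± 1.25 CPM in control-labelled libraries. Fdps, which makes farnesyl diphosphate, was 2.44-fold lower, at 31.1 ± 2.27 CPM in VprBP-labelled and 75.9 ± 1.04 CPM in control-labelled libraries.

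All 3 genes between farnesyl diphosphate and lanosterol fell. Sqle, squalene epoxidase, had 55.8, 61.1 and 58.2 CPM in VprBP-labelled libraries and 244, 235 and 231 CPM in control-labelled libraries. It was 4.05-fold lower (95% interval 3.75 to 4.38, edgeR adjusted p = 3.17e-16). Sqle lies on chr15:59315077-59331192 (GENCODE M21, GRCm38). Fdft1, squalene synthase, had 21.7, 22.8 and 22.0 CPM in VprBP-labelled libraries, against 59.4, 57.1 and 57.8 CPM in control-labelled libraries, 2.62-fold lower. Its exons overlap those of the abundant lysosomal protease gene Ctsb on the opposite strand (5129 CPM in VprBP-labelled and 4467 CPM in control-labelled libraries on average). Ctsb rose by 0.20 on the log2 scale, and without a stated strand setting reads of the shared stretch cannot be told apart. Leaving Fdft1 out, 10 of 17 cholesterol synthesis genes were lower and 3 higher. Lss, which folds squalene epoxide into lanosterol, was 2.38-fold lower, at 19.0 ± 0.305 CPM in VprBP-labelled and 45.3 ± 3.63 CPM in control-labelled libraries.

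**Figure D3:**
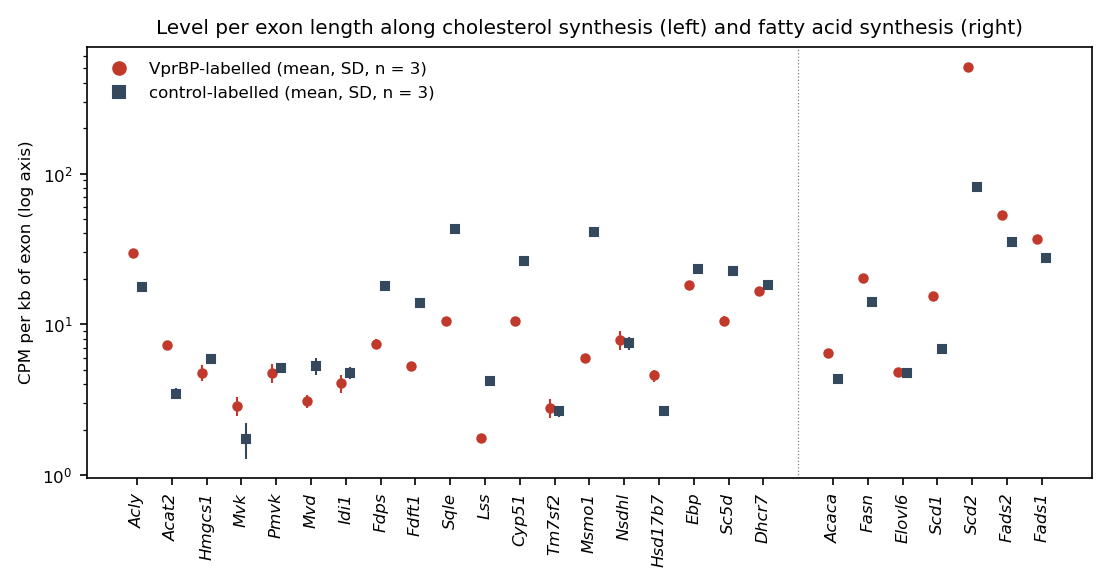
Level per kilobase of exon (CPM per kb, log axis) of the genes in pathway order, cholesterol synthesis at left and fatty acid synthesis at right, as mean and SD of 3 libraries. Acly, which supplies both branches, is drawn at the left. Control-labelled squares stand above VprBP-labelled circles from Fdps to Cyp51, and the circles stand above the squares for Acaca, Fasn, Scd1, Scd2, Fads2 and Fads1.

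Past lanosterol, the widest difference of all 34 genes was that of Msmo1, the methylsterol monooxygenase that removes methyl groups from the sterol ring. It had 37.3, 37.6 and 35.8 CPM in VprBP-labelled libraries and 249.6, 261 and 246 CPM in control-labelled libraries. The groups did not overlap, and Msmo1 was 6.83-fold lower (95% interval 6.32 to 7.38, edgeR adjusted p = 5.48e-18). It lies on chr8:64718139-64733792 (minus strand), and across the transcriptome 6.67% of tested genes had a difference of larger size. Cyp51, the lanosterol demethylase, had 47.0, 47.3 and 44.4 CPM in VprBP-labelled libraries, against 116, 115 and 118 CPM in control-labelled libraries, and was 2.51-fold lower. Its exons overlap Akap9, which was not called (log2 difference -0.09). Sc5d, the lathosterol desaturase, was 2.14-fold lower, at 51.3 ± 3.94 CPM in VprBP-labelled and 109.9 ± 3.02 CPM in control-labelled libraries.

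The remaining late genes moved little or upward. Ebp, the sterol isomerase, was 1.27-fold lower. Dhcr7, which completes cholesterol, averaged 96.7 ± 5.06 CPM in VprBP-labelled libraries and 106 ± 2.26 CPM in control-labelled libraries, a fall by 0.14 on the log2 scale (edgeR adjusted p = 0.0294) that 8 of 15 alternative settings did not keep. The call was lost without VprBP-labelled replicate 2 (-0.13) or 3 (-0.09) and without control-labelled replicate 1 (-0.14) or 3 (-0.14). Hsd17b7, a sterol ketone reductase, rose 1.74-fold, with 24.9, 24.2 and 20.9 CPM in VprBP-labelled libraries, against 12.7, 14.5 and 13.2 CPM in control-labelled libraries. Nsdhl, which works in the same demethylation complex, was not called, with 18.7, 24.4 and 24.4 CPM in VprBP-labelled libraries and 20.1, 23.6 and 20.2 CPM in control-labelled libraries. Tm7sf2, a sterol reductase, was not called, with 13.7, 10.4 and 12.6 CPM in VprBP-labelled libraries, against 10.6, 11.8 and 12.4 CPM in control-labelled libraries, and its exons overlap Vps51 on the same strand.

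In fatty acid synthesis 7 of 8 genes rose. Acly, which makes cytosolic acetyl-CoA from citrate, had 161, 151 and 158 CPM in VprBP-labelled libraries and 93.4, 97.9 and 89.9 CPM in control-labelled libraries (1.68-fold higher). Acaca, the carboxylase that makes malonyl-CoA, was 1.51-fold higher, at 111 ± 1.69 CPM in VprBP-labelled and 73.6 ± 4.73 CPM in control-labelled libraries, and Fasn, fatty acid synthase, 1.45-fold, at 222 ± 14.8 CPM in VprBP-labelled and 153 ± 5.04 CPM in control-labelled libraries. Neither pair of groups overlapped. Elovl6, which lengthens palmitate to stearate, was the exception: it had 30.2, 33.0 and 29.4 CPM in VprBP-labelled libraries, against 33.3, 29.1 and 29.8 CPM in control-labelled libraries, with an interval of -0.18 to 0.18 on the log2 scale (edgeR adjusted p = 0.976).

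The desaturases, which put double bonds into fatty acids, included the gene with the highest level per exon length of the 35, under both labels. Scd2, a stearoyl-CoA desaturase, had 2752, 2803 and 2727 CPM in VprBP-labelled libraries and 443, 449 and 436 CPM in control-labelled libraries. It was 6.23-fold higher (95% interval 5.91 to 6.58, edgeR adjusted p = 1.22e-19), and 7.38% of tested genes had a difference of larger size. By count, Scd2 ranked 22, 22 and 23 among all genes of the VprBP-labelled libraries and 259, 255 and 271 in the control-labelled libraries. Scd1, its close relative, had 73.9, 76.5 and 75.8 CPM in VprBP-labelled libraries, against 33.4, 32.3 and 34.0 CPM in control-labelled libraries, 2.27-fold higher. Both had fractional counts in all 6 libraries, so reads may have been divided between these related genes. Fads2, the delta-6 desaturase, had 180.2, 169.7 and 175 CPM in VprBP-labelled libraries and 109, 116 and 122 CPM in control-labelled libraries (1.51-fold higher). Fads1, the delta-5 desaturase, averaged 177 ± 3.57 CPM in VprBP-labelled and 132 ± 2.33 CPM in control-labelled libraries (1.34-fold higher).

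Scd2 dominated the summed level of the fatty acid genes, with 74.8% to 75.7% of it in VprBP-labelled libraries and 41.8% to 42.9% in control-labelled libraries. The sum of all 8 was 672 ± 6.67 CPM per kb in VprBP-labelled libraries and 191 ± 2.38 CPM per kb in control-labelled libraries. Without Scd2 it was 166 ± 2.81 CPM per kb in VprBP-labelled and 110.3 ± 1.93 CPM per kb in control-labelled libraries, still apart in every library. Scd2 (chr19:44293674-44306864) and Scd1 (chr19:44394455-44407879) lie 87590 bases apart. The 28 other tested genes within 1 Mb of the pair had a median log2 difference of -0.35. Fads2 and Fads1, on the same chromosome and 81141 bases apart, had 35 such neighbours with a median of 0.19. Among the 501 tested genes of chromosome 19 the median was -0.06.

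Of the efflux genes, Abca1, the transporter that loads cholesterol onto apolipoprotein A-I and a well known LXR target, had 343, 351 and 344 CPM in VprBP-labelled libraries and 62.3, 56.1 and 53.2 CPM in control-labelled libraries. The groups were far apart, and Abca1 was 6.03-fold higher (95% interval 5.56 to 6.55, edgeR adjusted p = 2.88e-17). It lies on chr4:53030787-53159895. Abcg1, the transporter that passes cholesterol to HDL and a major macrophage LXR target, was near the floor, with 2, 1 and 3 counts in VprBP-labelled libraries and 3, 0 and 5 counts in control-labelled libraries, and no difference was detectable at this depth. Nr1h2, which encodes the receptor LXR-beta, fell 1.53-fold, with 76.8, 65.6 and 67.0 CPM in VprBP-labelled libraries, against 102, 108 and 111 CPM in control-labelled libraries.

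Ratios of related genes within a library do not depend on scaling between libraries. Scd2 exceeded Scd1, per exon length, 33.4, 32.8 and 32.2 times in VprBP-labelled libraries and 11.9, 12.4 and 11.5 times in control-labelled libraries. The Insig1 to Insig2 ratio was 0.196, 0.186 and 0.142 in VprBP-labelled libraries, against 0.471, 0.470 and 0.411 in control-labelled libraries. The Srebf1 to Srebf2 ratio was 1.95, 1.94 and 2.04 in VprBP-labelled libraries, against 0.857, 0.920 and 0.895 in control-labelled libraries, so the gene with the higher level was Srebf1 in VprBP-labelled libraries and Srebf2 in control-labelled libraries. None of the 3 ratios overlapped between labels. Each gave p = 0.1 in a two-sided exact permutation test, the smallest that 3 against 3 libraries allow, and 0.1 after adjustment over the 3. The Abca1 to Abcg1 ratio could not be formed because a library had 0 Abcg1 counts.

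**Figure D4:**
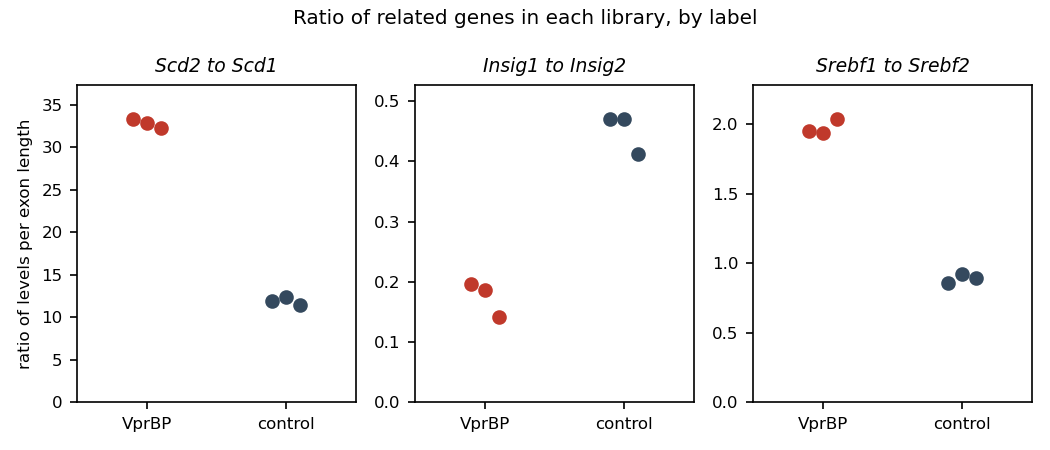
Ratio of levels per exon length in each library for Scd2 to Scd1, Insig1 to Insig2 and Srebf1 to Srebf2, on axes that start at 0, with VprBP-labelled libraries at left and control-labelled at right. The Insig1 to Insig2 ratio is the one that was lower in VprBP-labelled libraries (at most 0.196, against at least 0.411).

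A further 50 textbook genes around the pathway were read in the same fit. With 48 tested, 17 rose and 19 fell, leaving 12 not called (median log2 difference -0.07). That is close to the shares for all genes (37.9% higher and 37.0% lower). The 19 tested genes of fatty acid supply, elongation and activation held 9 that rose and 7 that fell. Me1, malic enzyme and a source of NADPH for fatty acid synthesis, was 3.28-fold higher (215 ± 4.28 CPM in VprBP-labelled and 65.5 ± 1.58 CPM in control-labelled libraries). Elovl1, an elongase of very long chains, was 2.94-fold lower (61.1 ± 1.69 CPM in VprBP-labelled and 179.8 ± 1.79 CPM in control-labelled libraries). Of 6 genes in isoprenoid branches 2 fell and none rose, and Dhdds, which makes dolichol precursors, was 3.38-fold lower (31.0 ± 2.83 CPM in VprBP-labelled and 105 ± 5.59 CPM in control-labelled libraries).

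Of 8 genes of SREBP processing and sterol sensing, 2 rose, 3 fell and 3 were not called. Mbtps1, the site-1 protease that cleaves SREBPs, was picked after its value was seen: it was 2.87-fold higher, at 125 ± 2.36 CPM in VprBP-labelled libraries and 43.5 ± 2.56 CPM in control-labelled libraries. Among 15 genes of sterol uptake, transport and storage and LXR targets, 6 rose and 7 fell, near the shares for all tested genes (37.9% higher and 37.0% lower). Mylip, an LXR target whose product marks lipoprotein receptors for degradation, was 6.98-fold higher (103 ± 3.22 CPM in VprBP-labelled and 14.8 ± 1.10 CPM in control-labelled libraries). Lrp1, a large lipoprotein receptor, was 6.26-fold higher (1078 ± 84.6 CPM in VprBP-labelled and 172 ± 3.42 CPM in control-labelled libraries), and Lipa, the lysosomal lipase that frees cholesterol from its esters, 4.72-fold (783 ± 19.2 CPM in VprBP-labelled and 166 ± 0.517 CPM in control-labelled libraries). Npc2, which carries cholesterol out of lysosomes, was 1.88-fold lower (443 ± 5.07 CPM in VprBP-labelled and 835 ± 4.67 CPM in control-labelled libraries). Soat1, which esterifies cholesterol for storage, was 1.95-fold lower (195 ± 10.5 CPM in VprBP-labelled and 380.4 ± 17.1 CPM in control-labelled libraries). Abcg4 and Apoe, of the same list, were picked after their values were seen. Abcg4 was 7.44-fold lower (0.889 ± 0.242 CPM in VprBP-labelled and 6.65 ± 0.954 CPM in control-labelled libraries). Apoe was called 1.14-fold lower, though its groups overlapped. Whether LXR targets moved together was not tested.

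**Figure D5:**
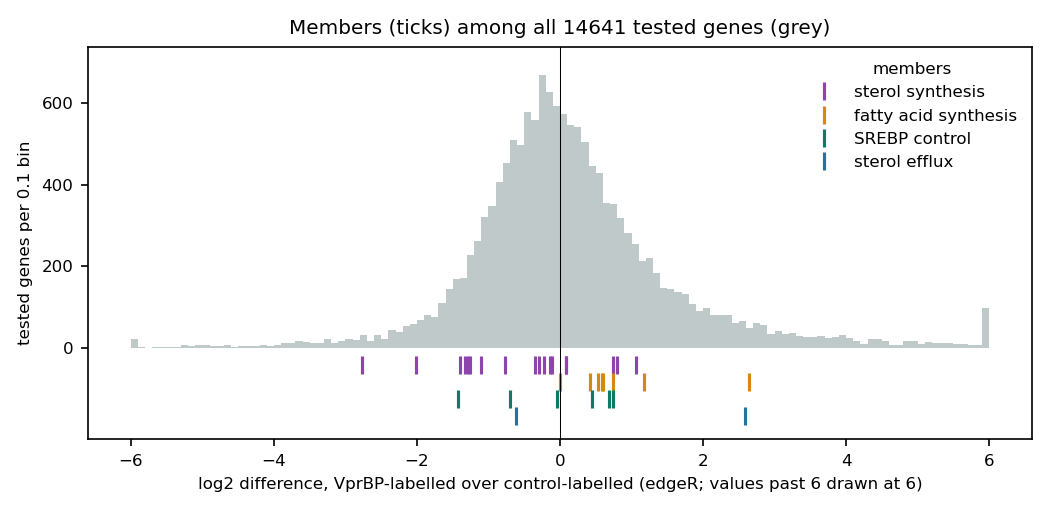
Distribution of the log2 difference over all 14641 genes tested (grey, genes per bin), with the 34 tested pathway genes as ticks coloured by role. Values past 6 in either direction are drawn at 6. The bulk of the ticks lie inside the grey mass, and Msmo1 (-2.77), Scd2 (2.64) and Abca1 (2.59) lie in its tails.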

How the data were processed

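RNA of 6 mouse libraries was sequenced, 3 VprBP-labelled and 3 control-labelled. The authors made the deposited expected counts per gene (estimated counts, not scaled between libraries) with Partek on mm10, per the submitters' processing notes. Aligner, counting tool and strand setting: not given in the sources used here. No gene with fewer than 10 counts over the 6 libraries has a row. Of 18908 IDs, 18501 (97.8%) matched GENCODE M21 on GRCm38, used for coordinates and exon lengths.

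Counts were rounded and tested with edgeR 4.0.16 in R 4.3.3 (quasi-likelihood F test, TMM scaling, filterByExpr, label as the only term). Benjamini-Hochberg adjustment ran over all 14641 genes tested, and 0.05 was the threshold. The script was tested on simulated data. Levels are CPM, as mean ± SD over 3 libraries, and log2 differences are VprBP-labelled over control-labelled. Floors and intervals cover counting error or the spread between libraries only. Ratios were compared by exact permutation.

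Values per library are given for the called genes that differ most in each role (up to 4 each way), for ratio pairs and for genes not called. From the further genes, up to 4 each way were named by smallest p, with Mbtps1, Abcg4 and Apoe added. The genes and lists were chosen with earlier results of these data known. Alternatives were other scalings and filters, DESeq2 1.42.0, limma-voom 3.58.1, a replicate block and leaving out each library.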

Additional observations from a re-analysis of the deposited data

How the results depend on the processing

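Under the 15 alternatives, counts of genes called in each role list stayed within 1.5 times the reported counts, and 29 of 34 genes kept both call and direction in every setting that tested them. The stricter filter left Mvk, Mvd and Pmvk untested, so these have 14 settings. Dhcr7 lost its call under 8 and Hmgcs1 under 2. The sign changed only for genes that were not called. With library size alone, where the all-gene median shifted by 0.12 (log2), Pmvk was 0.0045 and Insig2 0.069. Elovl6 was -0.021 with upper quartile scaling, -0.0017 without mitochondrially encoded genes, -0.0028 with limma-voom, and between -0.042 and 0.061 when one library was left out. The replicate numbers did not pair the libraries (correlations of same-numbered deviations -0.0324, 0.0066 and -0.0422). With the replicate block 5395 genes were higher and 5254 lower, and 10 of 18 cholesterol synthesis genes were lower. Abcg1 could not be judged at this depth.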
